A study of Mus musculus with 12 samples.

Results

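G1/S and DNA replication genes encode the machinery that commits a cell to S phase and copies its DNA. They were taken from a list of 45 gene symbols, of which 44 were measured among the 17097 genes with a probeset annotated to 1 symbol alone. Chaf1a, a subunit of the chaperone that deposits histones behind the replication fork, had no such probeset. Each gene was represented by the probeset with the highest mean over 12 Affymetrix arrays of immortalized mouse mesenchymal stem/stromal cells (MSCs), and all values below are deposited log2 expression values, on which a difference of 1 is a 2-fold difference.

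The arrays fall into 4 groups: TGF-β-treated p38α∆ MSCs (3 arrays, numbered 1, 2 and 4), TGF-β-treated WT MSCs (3 arrays, numbered 1, 3 and 4), untreated p38α∆ MSCs (2 arrays, numbered 1 and 3) and untreated WT MSCs (4 arrays, numbered 1, 3, 4 and 4b). All groups share the background strain, which the labels give as FVB/NJ and the study's mouse methods as C57BL/6 J, as well as floxed alleles of Mapk14, the gene of the kinase p38α, and a Cre-ERT2 recombinase driven by the ubiquitin C promoter. In p38α∆ MSCs the floxed alleles were deleted by adding 4-hydroxytamoxifen to cells that were already immortalized, while WT MSCs received vehicle, so loss of p38α and exposure to the drug and to active Cre cannot be told apart. Cells were kept at 0.5% serum, and TGF-β was given at 5 ng/mL for 20 h. The labels do not say that arrays of a group come from separate cultures, so p-values measure the spread between these arrays, which may be technical. With 2 to 4 arrays a group, precision is limited by their number.

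Before S phase, the origin recognition complex, Cdc6 and Cdt1 load rings of Mcm proteins onto replication origins, a step called licensing. Cdc7 kinase, Mcm10, Cdc45 and the GINS complex then turn the rings into active helicases, and polymerases with the Pcna clamp and its loader copy both strands. Many of these genes are targets of E2F transcription factors, which are held back by Rb family proteins until G1 cyclin-dependent kinases release them, and TGF-β is known to arrest many epithelial cells in G1 through this route. In bulk RNA, fewer cells in S phase and less of each RNA per cell cannot be told apart.

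Arrays numbered 1 stood apart from all others: the first principal component, 47.5% of the variance over all genes, placed them at −41.0 to −23.1 and the other 8 arrays at 2.1 to 31.1. Mapk14 measured 9.27 to 9.51 in p38α∆ MSCs given TGF-β, against 9.06 to 9.32 in WT MSCs given TGF-β, and 9.01 and 9.03 in untreated p38α∆ MSCs, against 8.95 to 9.12 in untreated WT MSCs. Where its probeset lies relative to the deleted exon is not given in the sources used here, so its level is no check of the genotype. Ccn2, a secreted matrix protein induced by TGF-β, measured 3.35 to 4.28 in the 6 untreated arrays. With TGF-β it was at 8.72 to 9.22 in p38α∆ MSCs and lower, at 6.97 to 7.61, in WT MSCs. Pdgfrb, Itgb1 and Col1a1, known as MSC genes, measured between 8.58 and 12.48 in every array, whereas Pecam1 and Cdh5 (endothelial), Ptprc (leukocyte), Epcam (epithelial) and Adipoq (adipocyte) lay between 2.67 and 4.36, below the median gene at 5.11. Over the whole marker lists, the mean over the 12 arrays lay below the median gene for 3 of 12 MSC markers, all 10 endothelial, 8 of 9 leukocyte, 6 of 7 epithelial and 3 of 4 adipocyte markers.

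TGF-β was followed by lower expression of part of the replication machinery in p38α∆ MSCs and by higher expression of another part in WT MSCs. No gene passed for a difference between these responses, as given below. Of the 44 genes, 8 fell and none rose with TGF-β in p38α∆ MSCs in limma at an adjusted p under 0.05: Mcm5, Mcm7, Cdt1, Mcm10, Pold1, Pole, Lig1 and Tk1. In this comparison 4.97% of all 17097 genes fell and 3.43% rose. In WT MSCs 6 of the 44 genes rose with TGF-β and none fell: Cdc6, Mcm6, Rpa2, Rrm2, Uhrf1 and E2f8, against 4.02% of all genes that rose and 5.36% that fell. The 8 genes that fell in p38α∆ MSCs did not pass in WT MSCs, where some of them leaned the same way and others did not. In WT MSCs Tk1 changed by −0.30, Pole by −0.24, Lig1 by −0.18, Pold1 by −0.17 and Mcm5 by −0.03. Mcm7, Mcm10 and Cdt1 changed by 0.02, 0.18 and 0.25. The 6 genes that rose in WT MSCs did not pass in p38α∆ MSCs. There Rrm2 changed by 0.51, Mcm6 by 0.14, E2f8 by 0.10, Cdc6 by 0.04, Rpa2 by −0.11 and Uhrf1 by −0.38. The median log2 fold change with TGF-β over the 44 genes was −0.31 in p38α∆ MSCs, with 34 of 44 below 0, and 0.031 in WT MSCs, with 19 of 44 below 0. Over all genes these medians were −0.0032 in p38α∆ MSCs and −0.010 in WT MSCs, with 50.8% and 52.9% of genes below 0.

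**Figure D1:**
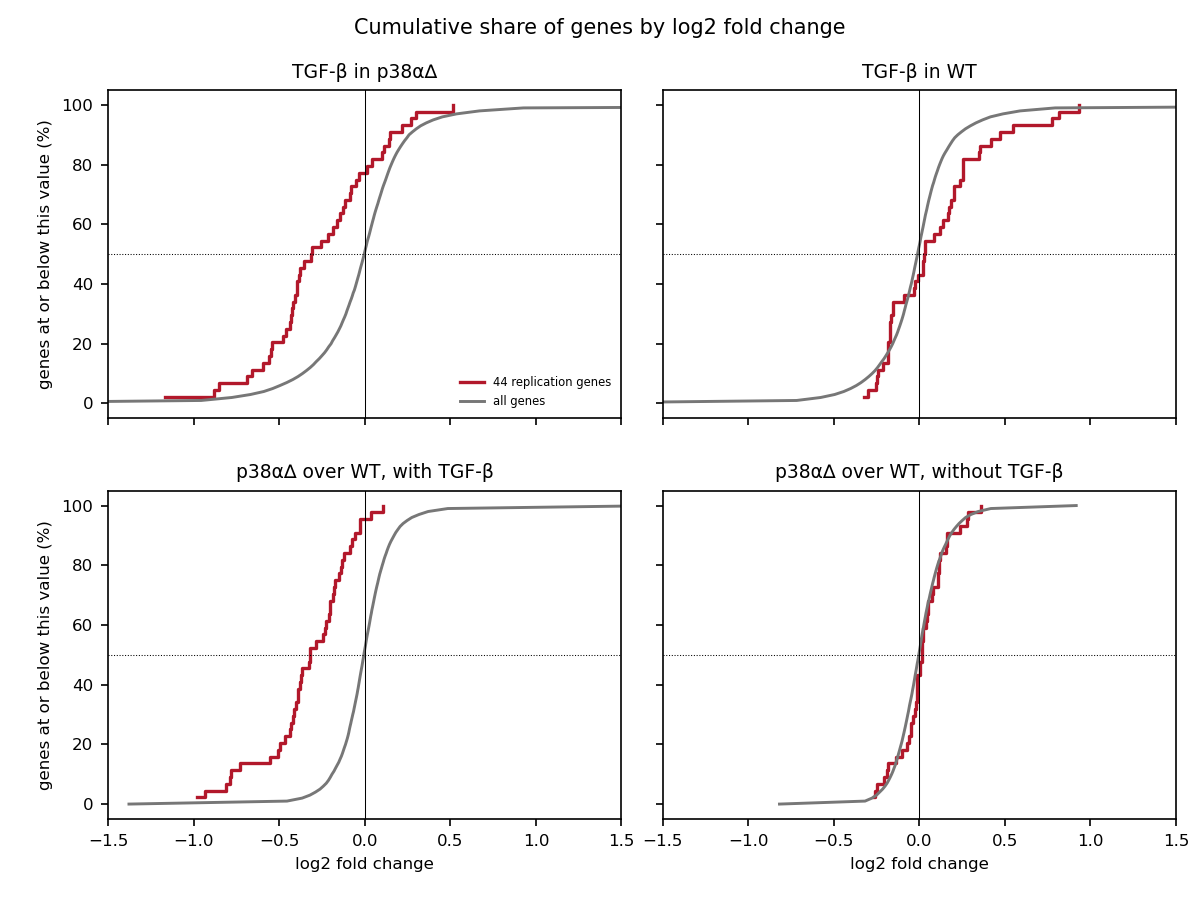
Cumulative share of genes (vertical axis, percent) at or below a log2 fold change (horizontal axis) for the 44 replication genes (red steps) and all 17097 genes (gray line) in 4 comparisons. The red steps lie left of the gray line for TGF-β in p38α∆ MSCs (median −0.31) and for p38α∆ over WT with TGF-β (median −0.32), and close to it for p38α∆ over WT without TGF-β (median 0.015).

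Under TGF-β, p38α∆ MSCs were lower than WT MSCs in 3 of the 44 genes, Mcm7, Cdt1 and Uhrf1, and higher in none, against 0.0819% and 0.368% of all genes. Most of the other genes did not pass but lay on the same side: 42 of 44 fold changes were below 0, with a median of −0.32, against 51.8% of all genes below 0 and a median of −0.0052. In 13 of the 44 genes every TGF-β-treated p38α∆ array lay below every TGF-β-treated WT array, which was the case for 3.45% of all genes. These 13 were Mcm3, Mcm5, Mcm7, Mcm10, Cdc6, Cdc7, Cdt1, Pold1, Pole, Rpa2, Uhrf1, Ccne1 and E2f8. Tk1, Pold1, Lig1 and Pole, which fell with TGF-β in p38α∆ MSCs, differed between genotypes by −0.93, −0.39, −0.32 and −0.23, without passing. Orc1, a subunit of the origin recognition complex, and Rrm1, the large subunit of ribonucleotide reductase, were the 2 genes above 0, at 0.11 and 0.04. A second Orc1 probeset, with a mean of 3.71, turned the sign (−0.15), while a second Rrm1 probeset gave 0.14.

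Without TGF-β no difference between p38α∆ and WT MSCs passed, either among the 44 genes or among all genes (0%). At an unadjusted p under 0.05 there was 1 of the 44 genes, Gmnn, which encodes the Cdt1 inhibitor geminin (0.36, unadjusted p = 0.0447 and adjusted p = 0.982 in limma), and 841 of all genes. The median over the 44 genes was 0.015 and the fold changes ran from −0.27 to 0.36, with 19 of 44 below 0.

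Origin licensing genes, 11 in number, held 3 of the 8 genes that fell with TGF-β in p38α∆ MSCs and 2 of the 6 that rose in WT MSCs. Over all genes 4.97% fell in p38α∆ MSCs and 4.02% rose in WT MSCs. The median log2 fold change of the 11 genes with TGF-β was −0.42 in p38α∆ MSCs and 0.035 in WT MSCs. Mcm7, a subunit of the Mcm helicase ring, measured 5.91, 6.55 and 6.15 in p38α∆ MSCs given TGF-β, against 6.89, 6.94 and 6.93 in WT MSCs given TGF-β. In untreated MSCs, Mcm7 was at 6.998 and 7.01 in p38α∆ cells and 6.93, 6.89, 7.04 and 6.76 in WT cells. The 3 treated p38α∆ arrays were the lowest of the 12, and the treated WT arrays lay within the range of the untreated WT arrays. Mcm7 fell with TGF-β in p38α∆ MSCs, at −0.88 (log2, SE 0.14, adjusted p = 0.00177), and was lower in p38α∆ than in WT MSCs under TGF-β (−0.79, SE 0.12, adjusted p = 0.0171), while the change with TGF-β in WT MSCs was 0.02 (adjusted p = 0.945). The first call held without each array in turn but was lost in 3 of the 23 alternatives described below. The second was lost without arrays 1 or 4 of treated p38α∆ MSCs or any of the 3 treated WT arrays (adjusted p up to 0.104). Both comparisons use the same treated p38α∆ arrays. A second Mcm7 probeset, with a lower mean, gave −0.57 with TGF-β in p38α∆ MSCs and −0.28 between genotypes under TGF-β, and passed in neither.

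Mcm5, another ring subunit, measured 8.06, 8.97 and 8.53 in p38α∆ MSCs given TGF-β, against 9.12, 9.38 and 9.26 in WT MSCs given TGF-β. In untreated MSCs, Mcm5 was at 9.26 and 9.34 in p38α∆ cells and 9.48, 9.28, 9.35 and 9.01 in WT cells. All treated p38α∆ arrays lay below all other arrays, array 2 only just below WT array 4b. The fall with TGF-β in p38α∆ MSCs was −0.85 (SE 0.20, adjusted p = 0.018), and without array 1 of treated p38α∆ MSCs, or either untreated p38α∆ array, it did not pass (adjusted p up to 0.152, smallest change −0.55). Between genotypes under TGF-β it was −0.81 (adjusted p = 0.0734) and did not pass. Mcm6, also of the ring, measured 6.67, 7.14 and 6.70 in p38α∆ MSCs given TGF-β, against 7.01, 7.31 and 7.28 in WT MSCs given TGF-β. In untreated MSCs, Mcm6 was at 6.46 and 6.89 in p38α∆ cells and 6.61, 6.72, 6.85 and 6.44 in WT cells. The treated WT arrays lay above all untreated arrays, and the treated p38α∆ arrays overlapped every other group. Mcm6 rose with TGF-β in WT MSCs by 0.55 (SE 0.12, adjusted p = 0.0101, or 0.0724 without array 4 of treated WT MSCs), and the change in p38α∆ MSCs was 0.14 (adjusted p = 0.691). Mcm2, Mcm3 and Mcm4 passed nowhere. Mcm2, a ring subunit often stained as a marker of proliferating cells, measured 6.77, 7.33 and 7.36 in p38α∆ MSCs given TGF-β, against 7.26, 7.34 and 7.25 in WT MSCs given TGF-β, and untreated 7.79 and 7.27 in p38α∆ cells, against 7.88, 7.58, 7.42 and 7.19 in WT cells. Its groups overlapped, and its change with TGF-β was −0.41 in p38α∆ MSCs (95% interval −0.91 to 0.09) and −0.24 in WT MSCs (95% interval −0.63 to 0.14). A second Mcm2 probeset, with a mean of 6.85, gave −0.39 in p38α∆ MSCs but 0.19 in WT MSCs, and between genotypes under TGF-β it gave −0.52 (adjusted p = 0.11 in limma) where the first gave −0.18.

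Cdc6 and Cdt1 bring the ring to the origin together. Cdc6 measured 4.95, 5.60 and 5.05 in p38α∆ MSCs given TGF-β, against 5.83, 6.24 and 6.42 in WT MSCs given TGF-β. In untreated MSCs, Cdc6 was at 4.67 and 5.58 in p38α∆ cells and 5.23, 5.51, 5.57 and 5.11 in WT cells. The 3 treated WT arrays were the highest of all 12. Cdc6 rose with TGF-β in WT MSCs by 0.82 (SE 0.17, adjusted p = 0.0092, or 0.0757 without array 4 of treated WT MSCs), while the change in p38α∆ MSCs was 0.04 (95% interval −0.44 to 0.52). Its difference between genotypes under TGF-β, −0.98, was the most negative of the 44 genes and did not pass (adjusted p = 0.0525). Cdt1 measured 9.34, 9.58 and 9.37 in p38α∆ MSCs given TGF-β, against 9.89, 9.77 and 10.12 in WT MSCs given TGF-β. In untreated MSCs, Cdt1 was at 9.71 and 9.80 in p38α∆ cells and 9.67, 9.58, 9.86 and 9.66 in WT cells. The treated p38α∆ arrays were again the 3 lowest, array 2 only just below WT array 3. Cdt1 fell with TGF-β in p38α∆ MSCs, at −0.42 (log2, SE 0.11, adjusted p = 0.0368), and was lower in p38α∆ than in WT MSCs under TGF-β (−0.56, SE 0.10, adjusted p = 0.0316). Each call was lost when any of 8 arrays was left out (adjusted p up to 0.217 for the first and 0.181 for the second): arrays 1 and 4 of treated p38α∆ MSCs, arrays 1 and 3 of treated WT MSCs, both untreated p38α∆ arrays and WT array 3 for both, with WT array 4 for the first and array 4 of treated WT MSCs for the second. Cdt1 has 2 further probesets, of which the brighter gave −0.31 and −0.50 in these comparisons and the dimmer, with a mean of 3.19, gave 0.14 and 0.11, all without passing. Geminin (Gmnn), which binds Cdt1 and blocks relicensing, did not pass, with a change with TGF-β of −0.44 in p38α∆ MSCs and 0.42 in WT MSCs. Orc1 and Orc6, subunits of the origin recognition complex, lay between −0.09 and 0.30 in the same comparisons. A second Orc1 probeset gave −0.23 in p38α∆ MSCs and −0.01 in WT MSCs, without passing.

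**Figure D2:**
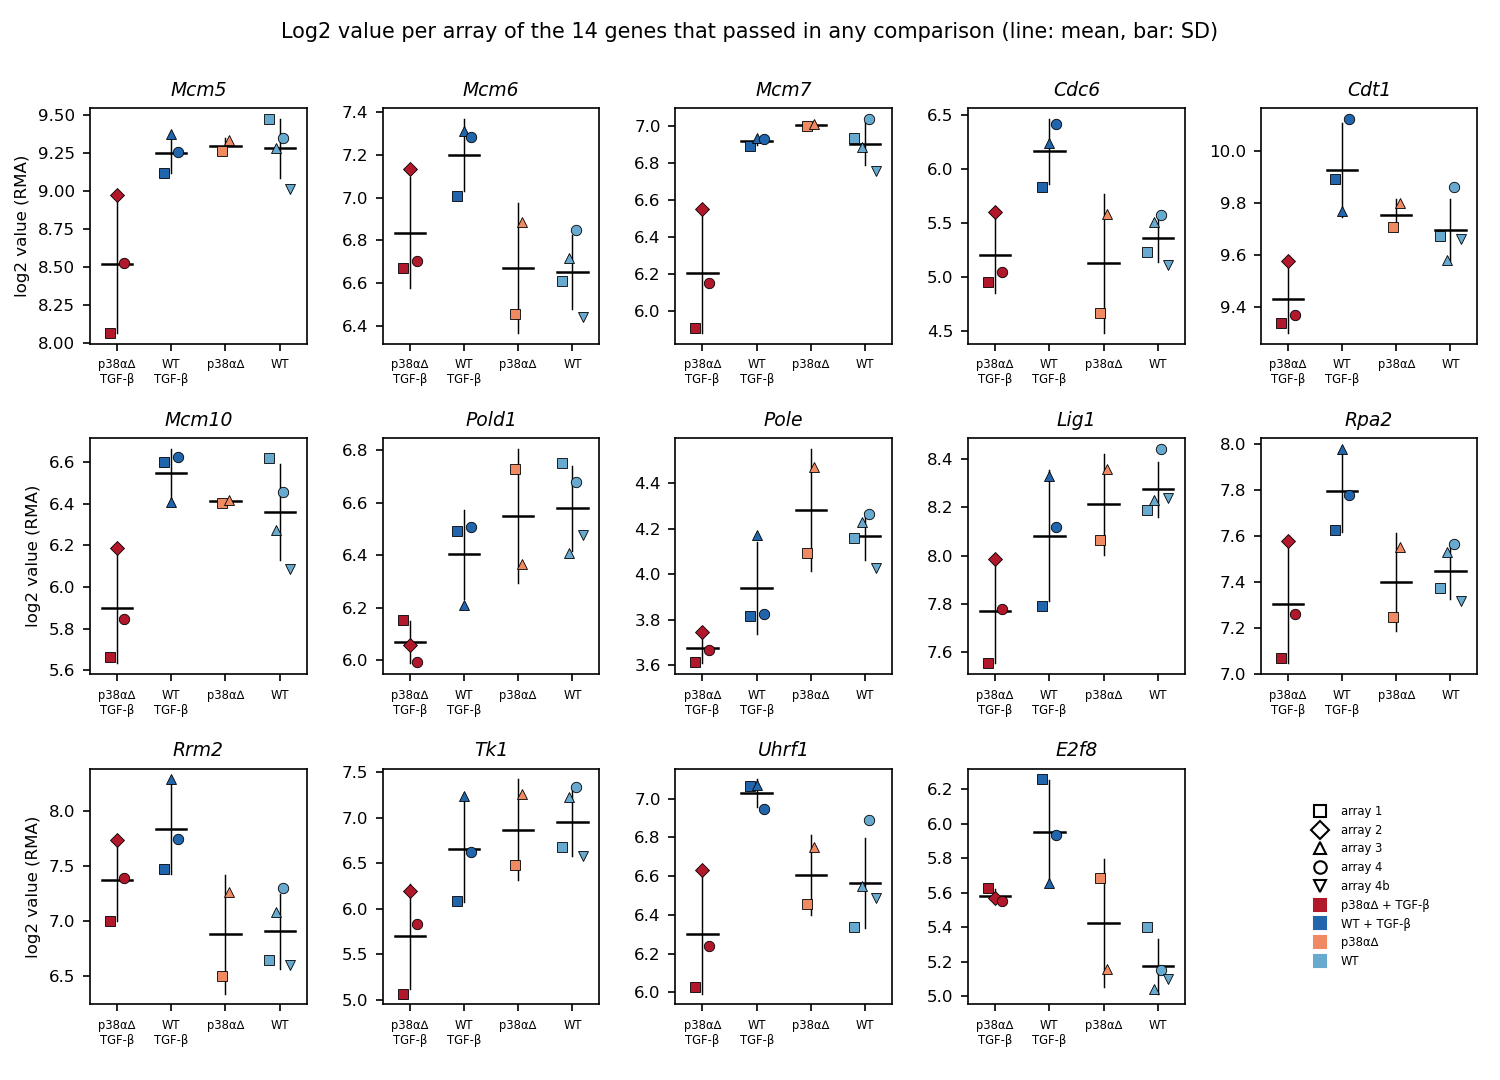
Log2 value (vertical axis, separate scale per gene) in each array for the 14 genes that passed in any comparison, by group (horizontal axis). Symbols stand for array numbers, horizontal lines for group means and vertical bars for the SD. The treated p38α∆ arrays of Mcm7 sit at 5.91 to 6.55, below all others, and the treated WT arrays of Cdc6 at 5.83 to 6.42, above all others.

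Promoter sequences are shown because many licensing genes are known E2F targets and genes of this role passed in every comparison that had calls. RefSeq windows of the mouse build GRCm38.p6, 250 bases before to 50 after a transcription start, were at hand for 37 of the 45 genes (44 windows). They were searched on both strands for E2F-type letters, namely TTTCGCGC and TTTGGCGC as well as TTTCCCGC with TTTGGCGG and also TTTCCCGG, some of which overlap when they face each other. Such letters stood in 15 of the 44 windows (34.1%), against 3.59% of all 32851 windows of the table, and at 2 or more positions in 15.9% against 0.18%. Counted by gene, they stood in 15 of the 37 genes with a window (40.5%), against 4.1% of all 27025 genes of the table. CCAAT stood in 56.8% of the windows against 37.4% of all, and the cell cycle elements TTTGAA or TTCGAA in 20.5% against 19.2%. Of the 14 genes that passed in any comparison, 13 had a window and 8 had E2F-type letters in it: Mcm5, Mcm7, Cdt1, Pold1 and Lig1, which fell in p38α∆ MSCs, and Mcm6, Cdc6 and Uhrf1, which rose in WT MSCs. A match is a match of letters alone. Shown here are the 250 bases before the start for the 5 of them with a match there, with E2F-type letters in capitals. The first is Mcm7, minus strand of chr5:138171884-138172133.
Mcm7: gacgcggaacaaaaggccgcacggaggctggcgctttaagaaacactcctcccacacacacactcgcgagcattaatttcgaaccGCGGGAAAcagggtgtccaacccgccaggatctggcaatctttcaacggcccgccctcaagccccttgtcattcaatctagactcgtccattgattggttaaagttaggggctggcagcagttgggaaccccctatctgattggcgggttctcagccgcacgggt
Mcm5 is on the plus strand at chr8:75109259-75109508, where matches in both orientations overlap.
Mcm5: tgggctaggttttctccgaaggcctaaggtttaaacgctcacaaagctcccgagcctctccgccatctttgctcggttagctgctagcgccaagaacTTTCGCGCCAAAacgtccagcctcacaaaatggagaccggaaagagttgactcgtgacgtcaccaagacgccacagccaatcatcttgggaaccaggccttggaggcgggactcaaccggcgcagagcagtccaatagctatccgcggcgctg
Mcm6 is on the minus strand at chr1:128359706-128359955, with an overlapping pair of opposite orientation and a further match nearer the start.
Mcm6: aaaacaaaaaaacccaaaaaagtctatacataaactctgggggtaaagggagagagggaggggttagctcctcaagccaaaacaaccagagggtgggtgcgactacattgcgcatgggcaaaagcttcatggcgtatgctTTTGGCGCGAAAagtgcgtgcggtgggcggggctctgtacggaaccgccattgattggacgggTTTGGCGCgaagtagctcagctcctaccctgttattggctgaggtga
Cdc6 is on the plus strand at chr11:98907901-98908150.
Cdc6: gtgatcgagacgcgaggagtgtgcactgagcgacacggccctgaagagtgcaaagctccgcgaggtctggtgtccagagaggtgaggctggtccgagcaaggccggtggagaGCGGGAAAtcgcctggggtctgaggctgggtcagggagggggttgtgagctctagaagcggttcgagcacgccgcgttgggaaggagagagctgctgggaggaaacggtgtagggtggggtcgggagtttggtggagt
Uhrf1 is on the plus strand at chr17:56304063-56304312.
Uhrf1: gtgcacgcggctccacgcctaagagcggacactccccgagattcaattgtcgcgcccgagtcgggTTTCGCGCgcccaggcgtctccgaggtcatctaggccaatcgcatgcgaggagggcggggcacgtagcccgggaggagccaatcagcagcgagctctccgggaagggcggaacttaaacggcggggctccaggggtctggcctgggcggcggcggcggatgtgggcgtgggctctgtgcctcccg

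Origin firing was represented by 5 genes, of which only Mcm10 passed, by a fall in p38α∆ MSCs that 4.97% of all genes shared. Mcm10, which joins the helicase as the origin fires, measured 5.66, 6.19 and 5.85 in p38α∆ MSCs given TGF-β, against 6.60, 6.41 and 6.63 in WT MSCs given TGF-β. In untreated MSCs, Mcm10 was at 6.40 and 6.42 in p38α∆ cells and 6.62, 6.28, 6.46 and 6.09 in WT cells. Array 2 of treated p38α∆ MSCs overlapped the untreated WT arrays, and the other 2 treated p38α∆ arrays lay below all others. Mcm10 fell with TGF-β in p38α∆ MSCs, at −0.59 (log2, SE 0.16, adjusted p = 0.044), a call that was kept without array 2 of treated p38α∆ MSCs, WT array 1 or WT array 4b and lost without any of the other 9 arrays (adjusted p up to 0.254). Between genotypes under TGF-β it differed by −0.73 and did not pass (adjusted p = 0.0525), whereas another of its 3 probesets gave −0.93 with an adjusted p of 0.0258 in limma when all probesets were tested singly. Gins1 and Gins2, subunits of the GINS complex, did not pass with TGF-β in p38α∆ MSCs, at −0.66 and −0.43 (adjusted p = 0.0949 and 0.318). Cdc7, the kinase that triggers firing, and Cdc45, a helicase subunit, did not pass, at −0.13 and 0.27.

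All 5 polymerase and primase genes had negative fold changes with TGF-β in p38α∆ MSCs, from −0.69 to −0.15, and 2 of them passed, against 4.97% of all genes that fell. Pold1, the catalytic subunit of the lagging-strand polymerase delta, measured 6.15, 6.06 and 5.99 in p38α∆ MSCs given TGF-β, against 6.49, 6.21 and 6.51 in WT MSCs given TGF-β. In untreated MSCs, Pold1 was at 6.73 and 6.37 in p38α∆ cells and 6.75, 6.41, 6.68 and 6.48 in WT cells. The 3 treated p38α∆ arrays lay below all others, and array 1 was the highest of them. Pold1 fell, at −0.54 (log2, SE 0.11, adjusted p = 0.00769). This call was lost in 5 of the 23 alternatives described below, 1 of them the fit without array 1 of untreated p38α∆ MSCs. Pole, the catalytic subunit of the leading-strand polymerase epsilon, measured 3.61, 3.75 and 3.67 in p38α∆ MSCs given TGF-β, against 3.82, 4.17 and 3.83 in WT MSCs given TGF-β. In untreated MSCs, Pole was at 4.09 and 4.47 in p38α∆ cells and 4.16, 4.23, 4.27 and 4.03 in WT cells. These values are low on the scale, 32.8% of all genes having a lower mean, and the treated p38α∆ arrays were the 3 lowest. Pole fell, at −0.55 (log2, SE 0.11, adjusted p = 0.0106, or 0.107 without array 3 of untreated p38α∆ MSCs). Prim1, the catalytic subunit of primase, did not pass (−0.69, adjusted p = 0.0651), and neither did Prim2 or Pola1, the other primase subunit and the catalytic subunit of polymerase alpha. A dim Prim2 probeset, with a mean of 3.46, turned the sign (0.14), while another Prim2 probeset gave −0.22.

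Among the 9 genes of the clamp, its loader and strand joining, 1 fell with TGF-β in p38α∆ MSCs and 1 rose in WT MSCs. Over all genes these shares were 4.97% and 4.02%, so for 9 genes the counts are near the background. Lig1, the ligase that joins Okazaki fragments, measured 7.55, 7.99 and 7.78 in p38α∆ MSCs given TGF-β, against 7.79, 8.33 and 8.12 in WT MSCs given TGF-β. In untreated MSCs, Lig1 was at 8.07 and 8.36 in p38α∆ cells and 8.19, 8.23, 8.44 and 8.24 in WT cells. The treated p38α∆ arrays lay below every untreated array and overlapped the treated WT arrays. Lig1 fell, at −0.48 (log2, SE 0.13, adjusted p = 0.0461), the weakest of the 8 calls, kept without array 2 of treated p38α∆ MSCs, array 1 or 3 of treated WT MSCs or WT array 1 and lost without any other array (adjusted p up to 0.211). Rpa2, a subunit of the protein that coats single-stranded DNA, measured 7.07, 7.58 and 7.26 in p38α∆ MSCs given TGF-β, against 7.63, 7.98 and 7.78 in WT MSCs given TGF-β. In untreated MSCs, Rpa2 was at 7.25 and 7.55 in p38α∆ cells and 7.37, 7.53, 7.57 and 7.32 in WT cells. The treated WT arrays were the 3 highest. Rpa2 rose in WT MSCs by 0.35 (SE 0.09, adjusted p = 0.0373), a call lost without any of the 3 treated WT arrays, either untreated p38α∆ array, or WT array 1, 3 or 4b (adjusted p up to 0.166). Its second probeset, with a mean of 7.07, gave 0.20 and did not pass (adjusted p = 0.554 in limma). Pcna, the clamp itself, measured 9.73, 10.17 and 10.12 in p38α∆ MSCs given TGF-β, against 9.81, 10.43 and 10.10 in WT MSCs given TGF-β, and untreated 9.77 and 10.23 in p38α∆ cells, against 9.67, 10.05, 9.99 and 9.99 in WT cells. Its groups overlapped throughout, and its difference between genotypes under TGF-β was −0.08 (95% interval −0.32 to 0.17). The 5 clamp loader genes, Rfc1 to Rfc5, had fold changes with TGF-β from −0.56 to −0.19 in p38α∆ MSCs and from −0.32 to −0.16 in WT MSCs, and none passed. Other probesets turned the sign in WT MSCs for Rfc2 (0.02), Rfc3 (0.0028) and Rfc4 (0.15). Fen1, the flap endonuclease of Okazaki fragments, was at 0.22 in p38α∆ MSCs and 0.36 in WT MSCs without passing.

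Nucleotide supply gave the largest fold change in each direction with TGF-β among the 44 genes. Tk1, the thymidine kinase of dividing cells, measured 5.07, 6.20 and 5.83 in p38α∆ MSCs given TGF-β, against 6.09, 7.24 and 6.62 in WT MSCs given TGF-β. In untreated MSCs, Tk1 was at 6.48 and 7.26 in p38α∆ cells and 6.68, 7.23, 7.34 and 6.58 in WT cells. The treated p38α∆ arrays lay below every untreated array and overlapped the treated WT arrays, whose array 1 was lower than p38α∆ array 2. Tk1 fell in p38α∆ MSCs, at −1.17 (log2, SE 0.28, adjusted p = 0.0221), which without array 1 of treated p38α∆ MSCs or either untreated p38α∆ array did not pass (adjusted p up to 0.14). Rrm2, the regulated subunit of ribonucleotide reductase, measured 6.999, 7.74 and 7.40 in p38α∆ MSCs given TGF-β, against 7.48, 8.29 and 7.75 in WT MSCs given TGF-β. In untreated MSCs, Rrm2 was at 6.50 and 7.26 in p38α∆ cells and 6.65, 7.08, 7.30 and 6.61 in WT cells. The treated WT arrays lay above all untreated arrays. Rrm2 rose in WT MSCs by 0.93 (SE 0.17, adjusted p = 0.00499), a call that held without each array in turn but was lost in 2 of the 23 alternatives described below. Its change in p38α∆ MSCs, 0.51, was the highest of the 44 genes there and did not pass (adjusted p = 0.228). A second Rrm2 probeset gave 0.64 in WT MSCs, which passed, and 0.21 in p38α∆ MSCs, which did not. Rrm1 and Tyms, the thymidylate synthase, had fold changes in p38α∆ MSCs of −0.25 and −0.21 and passed nowhere.

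Of the 3 chromatin and histone genes, Uhrf1 alone passed, with a rise in WT MSCs and a genotype difference under TGF-β. Over all genes 4.02% rose in WT MSCs and 0.0819% were lower in p38α∆ MSCs under TGF-β. Uhrf1, which recruits the maintenance methyltransferase to newly copied DNA, measured 6.03, 6.63 and 6.24 in p38α∆ MSCs given TGF-β, against 7.07, 7.07 and 6.94 in WT MSCs given TGF-β. In untreated MSCs, Uhrf1 was at 6.46 and 6.75 in p38α∆ cells and 6.34, 6.55, 6.89 and 6.48 in WT cells. The treated WT arrays were the 3 highest, and the treated p38α∆ arrays overlapped the untreated ones. Uhrf1 rose with TGF-β in WT MSCs by 0.47 (SE 0.12, adjusted p = 0.033) and was lower in p38α∆ than in WT MSCs under TGF-β (−0.78, SE 0.14, adjusted p = 0.0357), and both comparisons use the treated WT arrays. The rise was lost without arrays 1 or 3 of treated WT MSCs or WT array 1, 3 or 4b (adjusted p up to 0.177). The genotype difference was lost without arrays 1 or 4 of treated p38α∆ MSCs, any treated WT array, either untreated p38α∆ array or WT array 3 (adjusted p up to 0.211). A second probeset of nearly the same mean gave 0.09 and −0.53 and passed in neither. Chaf1b, of the histone chaperone, and Slbp, which binds histone mRNA, passed nowhere.

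The 7 genes of G1/S transcription and checkpoint had fold changes with TGF-β in p38α∆ MSCs from −0.36 to 0.15, and none passed there. E2f8, an atypical E2F that represses E2F targets, had the lowest adjusted p of the 44 genes with TGF-β in WT MSCs. It measured 5.62, 5.57 and 5.55 in p38α∆ MSCs given TGF-β, against 6.26, 5.66 and 5.94 in WT MSCs given TGF-β, and untreated 5.69 and 5.16 in p38α∆ cells, against 5.40, 5.04, 5.15 and 5.10 in WT cells. All treated arrays lay above all untreated WT arrays, and the treated p38α∆ arrays overlapped the untreated p38α∆ arrays. E2f8 rose in WT MSCs by 0.77 (SE 0.10, adjusted p = 0.0003), a call that held under all 23 alternatives, while its fold change in p38α∆ MSCs was 0.10 (95% interval −0.17 to 0.38). Its second probeset gave 0.99 in WT MSCs (adjusted p = 0.000968 in limma) and 0.41 in p38α∆ MSCs (unadjusted p = 0.0443, adjusted p = 0.245 in limma). E2f1, an activating E2F, measured 5.51, 6.21 and 5.78 in p38α∆ MSCs given TGF-β, against 5.78, 6.21 and 6.28 in WT MSCs given TGF-β, and untreated 5.75 and 6.41 in p38α∆ cells, against 5.28, 6.06, 6.35 and 6.02 in WT cells, with all groups overlapping. Its fold change with TGF-β in WT MSCs was 0.20, and −0.30 with a second probeset, neither of which passed. Ccne1, cyclin E1, which drives entry into S phase, measured 6.14, 6.36 and 6.18 in p38α∆ MSCs given TGF-β, against 6.67, 6.48 and 6.48 in WT MSCs given TGF-β, and untreated 6.28 and 5.84 in p38α∆ cells, against 6.62, 6.25, 6.25 and 5.95 in WT cells. Its treated p38α∆ arrays lay below its treated WT arrays, with a difference of −0.38 that did not pass (adjusted p = 0.383). Ccne2, E2f2, Mybl2 and Chek1, the last a checkpoint kinase, passed nowhere, and their means over the 12 arrays lay between 2.98 and 4.28, below the median gene.

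**Figure D3:**
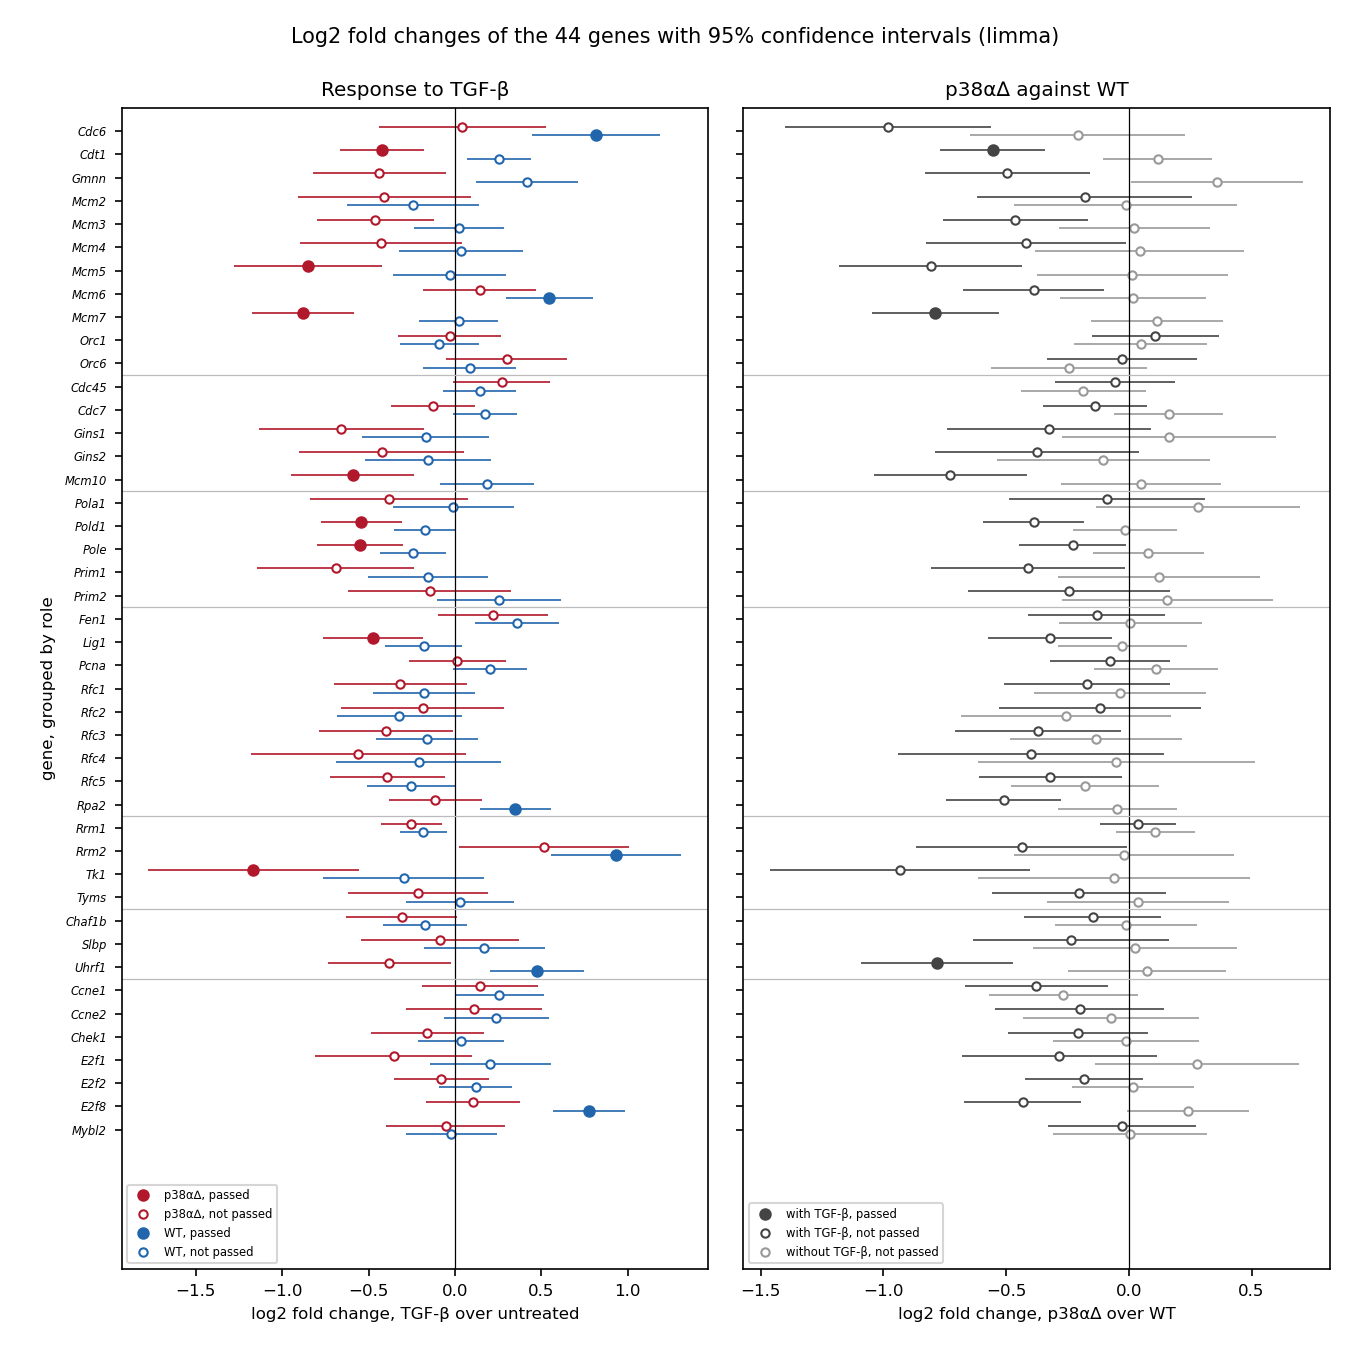
Log2 fold changes (horizontal axis) of the 44 genes by role (vertical axis) with 95% confidence intervals, for TGF-β over untreated in p38α∆ and WT MSCs (left) and for p38α∆ over WT with and without TGF-β (right). Filled points passed at an adjusted p under 0.05; with TGF-β, 42 of 44 points for p38α∆ over WT lie below 0.

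Whether the response to TGF-β itself differed between p38α∆ and WT MSCs was asked with the interaction term of the fit, and none of the 44 genes or of all genes (0%) passed. At an unadjusted p under 0.05 there were 12 of the 44 genes and 920 of all genes. The response was more negative in p38α∆ than in WT MSCs for 40 of the 44 genes, with a median difference of −0.30, against 50% of all genes below 0 and a median near 0 (−0.0002). The lowest p-value was that of Mcm7, at a difference of −0.90 (SE 0.17, 95% interval −1.28 to −0.52, adjusted p = 0.453), followed by Cdt1 at −0.67 (SE 0.14, adjusted p = 0.512) and E2f8 at −0.67 (SE 0.16, adjusted p = 0.566). A gene that passed in WT MSCs and not in p38α∆ MSCs, or the reverse, is therefore not shown to respond differently in them.

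Arrays of the same number were also compared with each other. Within number 1, the treated p38α∆ array lay below the treated WT array in 39 of 44 genes (median −0.31), and within number 4 in 38 of 44 (median −0.27), against 51.8% and 51.9% of all genes. In 33 of the 44 genes (75%) both differences were negative and in none were both positive, against 28.9% and 25.2% of all genes. Cdc6 differed by −0.88 within number 1 and −1.37 within number 4, Mcm7 by −0.98 and −0.78, and Uhrf1 by −1.04 and −0.70. TGF-β in p38α∆ MSCs can be compared within number 1 alone, where 36 of 44 genes were lower in the treated array (median −0.40), against 53.5% of all genes. Within numbers 1, 3 and 4 the treated WT array was lower than the WT array in 25, 10 and 27 of the 44 genes, against 51.8%, 60.1% and 49.3% of all genes, or in 12 with WT array 4b in place of 4 (49.3% of all genes). Array 1 of treated p38α∆ MSCs was the lowest of all 12 arrays in 24 of the 44 genes, against 15.9% of all genes, and array 3 of treated WT MSCs was the highest in 16, against 9.89% of all genes.

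**Figure D4:**
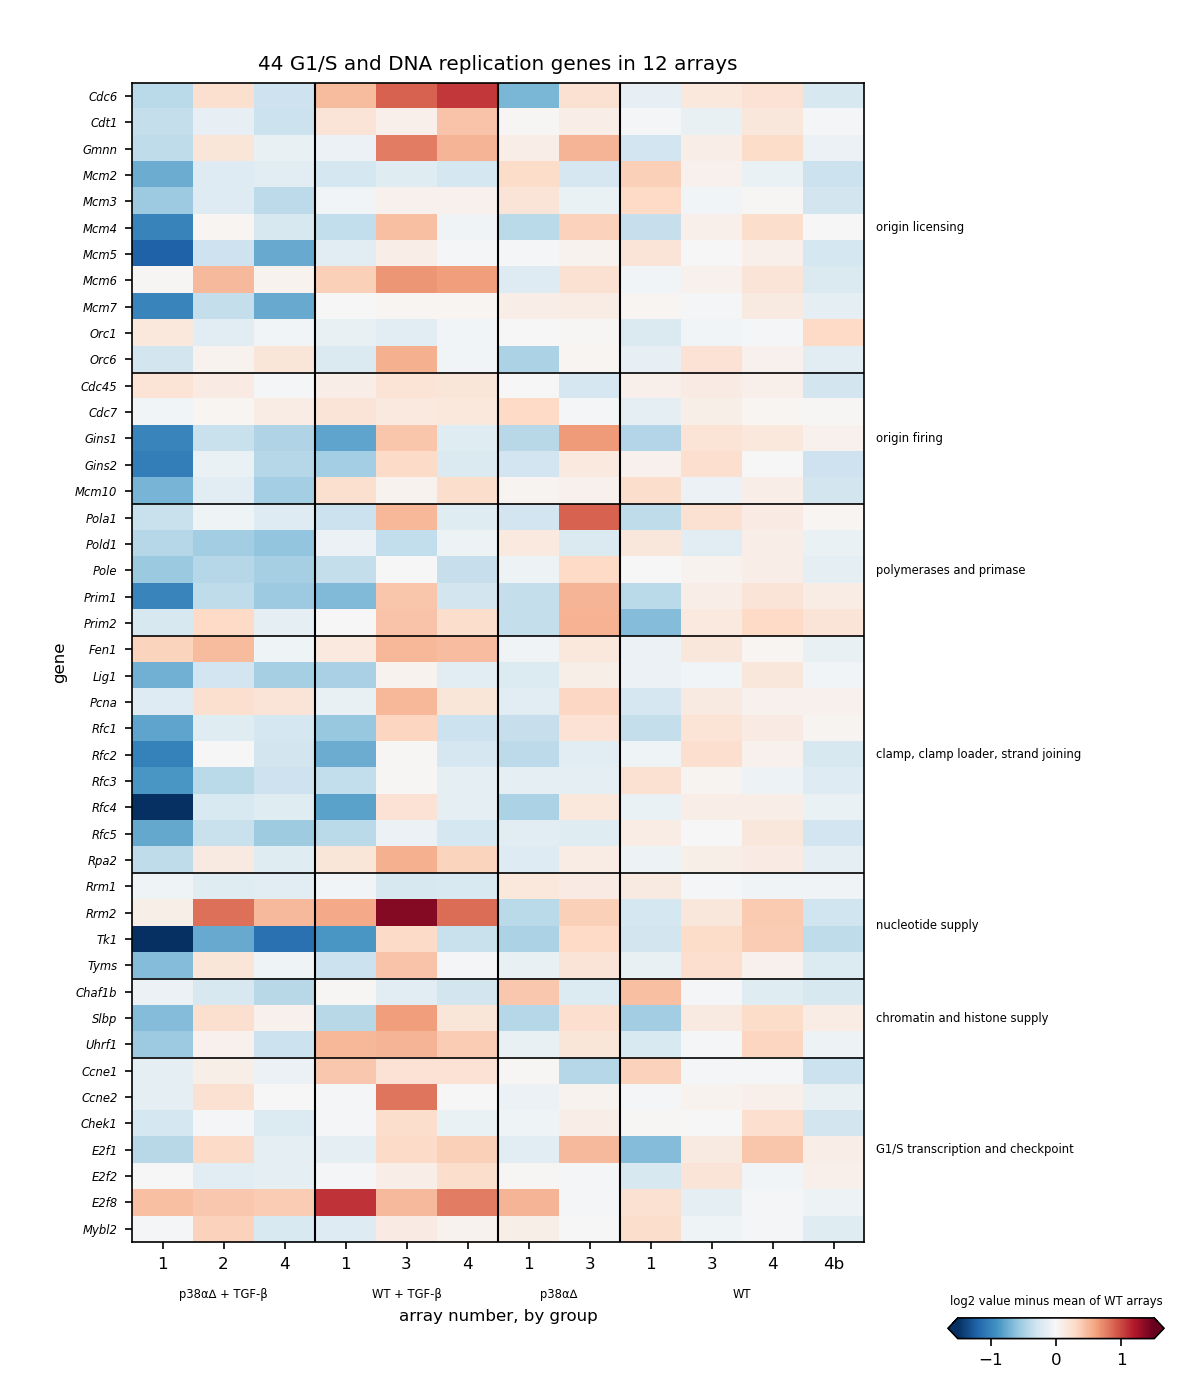
Log2 value minus the mean of the 4 WT arrays (color, blue lower and red higher) for the 44 genes (rows, by role) in the 12 arrays (columns, by group and array number). Array 1 of treated p38α∆ MSCs is the bluest column, with 37 of 44 genes below the WT mean, and array 4 of that group has 36 and array 2 has 24.

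The counts of genes that passed changed with single arrays, among the 44 genes and among all genes. The count of falls with TGF-β in p38α∆ MSCs, 8 with all arrays, was 3 without array 1 of treated p38α∆ MSCs, 2 without either array of untreated p38α∆ MSCs, and 5 without array 4 of treated p38α∆ MSCs, WT array 3 or WT array 4. Over all genes, 850 fell with all arrays, 500 without array 1 of treated p38α∆ MSCs, 358 and 453 without arrays 1 and 3 of untreated p38α∆ MSCs, and 792, 683 and 746 without the last 3 named. The count of genotype differences under TGF-β, 3 with all arrays, was 0 without arrays 1 or 4 of treated p38α∆ MSCs or any treated WT array, 1 without WT array 3, 5 without array 2 of treated p38α∆ MSCs or WT array 1, and 6 without WT array 4b. Over all genes this count was 14 with all arrays, 0 to 5 where none of the 44 genes passed, 2 without WT array 3, and 15, 20 and 26 without the last 3 named. The count of rises in WT MSCs, 6 with all arrays, was 3 without array 4 of treated WT MSCs, where 443 of all genes rose in place of 687. The median over the 44 genes stayed between −0.34 and −0.18 for TGF-β in p38α∆ MSCs and between −0.38 and −0.22 between genotypes under TGF-β, while its sign for TGF-β in WT MSCs turned without array 3 of treated WT MSCs (−0.05). Without the term for the array number, 2 genes fell in p38α∆ MSCs, 1 rose in WT MSCs and none differed between genotypes, against 305, 286 and 0 of all genes. Without the arrays numbered 1, 3 fell in p38α∆ MSCs and none differed between genotypes, against 698 and 3 of all genes.

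With TGF-β in p38α∆ MSCs, 13 of the 44 genes had every treated array below every untreated array, against 12.2% of all genes. In WT MSCs, 7 of the 44 genes had every treated array above every untreated array, against 5.37% of all genes.

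Other genes of DNA replication, from a list of 50 of which 42 were measured, gave fewer calls. With TGF-β in p38α∆ MSCs 4 fell, against 4.97% of all genes, and none rose: Timeless, of the fork protection complex (−0.78), Rpa1, the large subunit of the single-strand binding protein (−0.57), Pold2, of polymerase delta (−0.45), and Gins4, of the GINS complex (−0.37). In WT MSCs 1 rose, Ung, the uracil glycosylase (0.41), and none fell, against 4.02% and 5.36% of all genes. Under TGF-β none passed between genotypes, with 38 of 42 fold changes below 0 and a median of −0.18. Of 28 measured genes of mitosis, 1 fell with TGF-β in p38α∆ MSCs and 1 rose in WT MSCs, against 4.97% and 4.02% of all genes, which for 28 genes is no more than the background. They were Aurkb, a kinase of chromosome segregation, in p38α∆ MSCs (−1.10) and Aurka, a spindle pole kinase, in WT MSCs (0.38). Between genotypes under TGF-β none passed although all 28 fold changes lay below 0 (median −0.24).

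Regulators of the G1/S step, 28 measured of 29 listed, included genes that fell with TGF-β in either genotype. In p38α∆ MSCs 4 fell, against 4.97% of all genes, and none rose: Rbl2, an Rb family repressor (−1.18), and the inhibitors of cyclin-dependent kinases Cdkn1a (−1.02), Cdkn1b (−0.97) and Cdkn2b (−0.71). In WT MSCs 6 fell, against 5.36% of all genes, led by Rbl2 (−0.90), Cdkn1c, another such inhibitor (−0.64), Cdkn1a (−0.58) and Ccnd1, cyclin D1 (−0.44), and 1 rose, Skp2, which targets Cdkn1b for degradation (0.51). Between genotypes under TGF-β none passed, with 18 of 28 fold changes below 0 and a median of −0.10.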

How the data were processed

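Expression was measured on 12 Affymetrix mouse expression arrays. The authors normalized the arrays by RMA, and the deposited values are log2 expression values per probeset (45101 probesets). Of these, 28898 had 1 gene symbol in the platform annotation, 551 had several and 15652 had none and were not named. The probeset with the highest mean represented each of 17097 genes. The 45 members and the other gene lists were chosen with earlier results of these data known.

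Groups were compared in limma 3.58.1 with statmod 1.5.0 in R 4.3.3, in 1 fit over all arrays with array number as a random block (correlation 0.488; array 4b counted as 4), and p-values were adjusted by Benjamini-Hochberg over all 17097 genes. Fitted fold changes differ slightly from differences of group means because of the block. The methods adjust for scanning batch, which the labels do not give. Deviations from group means correlated at 0.645 to 0.845 within number 1, 0.678 to 0.785 within number 3 and 0.024 to 0.305 within number 4. With only 2 arrays, the untreated p38α∆ deviations mirror each other. Their correlations with any array are fixed to be equal with opposite sign, such as 0.785 and −0.785 with array 3 of treated WT MSCs. This holds for the 0.678 and 0.785 within number 3, where the other correlation was 0.743, and for part of those between numbers. Between arrays of different numbers the correlations ran from −0.826 to 0.753. The highest was that of array 2 of treated p38α∆ MSCs with array 3 of treated WT MSCs. The numbers were therefore not shown to pair the arrays. Arrays 4 and 4b differed by a median of 0.0909 and were kept as separate arrays.

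Genes with values in every array were those called in any comparison, with Mcm2, Pcna, Ccne1 and E2f1. Alternatives changed the block, probeset, filter, scaling, prior and arrays included.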

Additional observations from a re-analysis of the deposited data

Results flagged for a closer look

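Among the 44 genes, the 4 untreated WT arrays were tested for a single array far from the other 3, and 3 genes had one. Chance gives about 1 in 20 groups, and 3 of 44 is near that share. Cdc45, a subunit of the replicative helicase, measured 5.10 in WT array 4b and 5.46 to 5.51 in the other WT arrays. Prim1, the catalytic subunit of primase, measured 6.34 in WT array 1 and 6.85 to 6.94 in the others, and Prim2, its partner, measured 7.03 in WT array 1 and 7.82 to 7.97 in the others. For Prim1 and Prim2, array 1 was also the lowest in treated p38α∆ (5.76 and 7.44), treated WT (6.09 and 7.67) and untreated p38α∆ MSCs (6.40 and 7.32). Their low values are thus shared by the arrays numbered 1, which stood apart over all genes. None of the 3 genes passed in any comparison.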

How the results depend on the processing

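Without the replicate block, 1 gene rose with TGF-β in WT MSCs, 2 fell in p38α∆ MSCs and 0 were lower in p38α∆ than in WT MSCs under TGF-β, when 286, 305 and 0 of all genes did, in place of 687, 850 and 14. With the replicate block as a fixed term the last count was 1 (3 of all genes), and with 4b as a number of its own 5 (21). In fits of only the groups compared, which have no block, the counts were 2, 0 and 0 (257, 19 and 0 of all genes). Without the arrays numbered 1, 3 fell in p38α∆ MSCs (698 of all genes) and 0 were lower under TGF-β (3). With arrays centred on their medians, 5 fell in p38α∆ MSCs (657 of all genes). The count lower under TGF-β was 7 of 34 genes above the median level (28 of all such genes) and 5 with a trend and robust prior (13 of all genes). Leaving out each array in turn gave 3 to 7 rises in WT MSCs, 2 to 9 falls in p38α∆ MSCs and 0 to 6 genes lower under TGF-β, with 443 to 760, 358 to 976 and 0 to 26 of all genes, where a lone p38α∆ array was assumed to vary like the other groups. Over the 23 alternatives, no median over the genes moved by more than the spread between arrays (SD 0.18). That spread is of single arrays, so leaving out an array can hardly move a median that far, and little can be read from it. The median with TGF-β in WT MSCs did turn its sign, as given above. Changes of sign aside, the falls in p38α∆ MSCs were lost in 16 of the 23 alternatives for Mcm10, 14 for Lig1 and 12 for Cdt1. They were lost in 6 for Mcm5 and for Tk1, 5 for Pold1, 3 for Mcm7 and 2 of 22 for Pole. The rises in WT MSCs were lost in 13 for Rpa2, 8 for Uhrf1, 3 for Mcm6 and 2 for Cdc6 and for Rrm2. The genotype differences under TGF-β were lost in 13 for Uhrf1, 12 for Cdt1 and 9 for Mcm7. Of 17 gene results, the 2 of Cdt1 changed sign with the probeset of highest variation, to 0.14 with TGF-β in p38α∆ MSCs (adjusted p = 0.747) and 0.11 under TGF-β (adjusted p = 0.958), which is the dim probeset. The causes of these changes were not tested.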
